A study of Homo sapiens with 16 samples.

Results

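The human HOX genes, the homeobox transcription factor genes that lie in the clusters HOXA, HOXB, HOXC and HOXD, were followed by RNA sequencing in HCT116 cells in which the histone methyltransferase G9a had been targeted. Members were the rows whose symbol is HOX, a cluster letter from A to D and a number, on main chromosomes. There were 40 such entries among 63653 genes, with 11 in HOXA, 10 in HOXB, 10 in HOXC and 9 in HOXD. They carry 39 symbols, because HOXC4 stands under 2 gene identifiers. In the hg19 build of the files HOXA lies on chromosome 7, HOXB on 17, HOXC on 12 and HOXD on 2.

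HOX proteins bind DNA through the homeodomain, whose recognition helix lies in the major groove, and they pattern the body from head to tail. Within a cluster the genes stand in the order in which they are used along that axis, from paralog number 1 at the 3′ end to 13 at the 5′ end. Genes with the same number in different clusters are paralogs. Trithorax (MLL) and Polycomb complexes keep the genes on or off, TALE homeodomain proteins (PBX, MEIS, PKNOX) bind DNA together with HOX proteins, and retinoic acid and CDX factors act on them in the embryo. The adult colon keeps expressing many of them.

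HCT116 is an established line of human colon cancer cells. The inhibitor group had received 0.5 µM BIX 01294 trihydrochloride hydrate, a compound that inhibits G9a (EHMT2) and the related GLP (EHMT1), for 72 h, and it has an inhibitor control group. The siRNA group had been transfected with 10 nM of a small interfering RNA against G9a using a lipid reagent for 72 h, and it has a siRNA control group. The sources used here do not give what the controls received. Each of the 4 groups held 2 libraries, and each library had 2 sequencing runs, which were averaged and counted once. Although the series names biological and technical replicates, no label ties a library to its own culture, and the p-values below measure the spread between libraries, which may be technical. In such bulk RNA, fewer cells with a transcript and less of it per cell cannot be told apart.

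Levels are FPKM (fragments divided by transcript length and by the number of mapped fragments) as the authors deposited them, scaled between libraries by median-of-ratios factors. Differences were tested with limma on log2(FPKM + 1) in 1 fit over the 8 libraries and 12846 genes, and "called" means a Benjamini-Hochberg adjusted p under 0.05. All tests were two-sided, and fold changes on this scale understate the change of low genes. EHMT2, which checks the siRNA labels, stood at 4.68 and 4.54 FPKM in the siRNA libraries, against 15.9 and 17.8 FPKM in the siRNA controls, and the siRNA changed it by -1.67 ± 0.09 on the log2 scale (SE, adjusted p = 0.000268 by limma). With the inhibitor EHMT2 stood at 19.7 and 18.9 FPKM, against 24.7 and 21.0 FPKM in the inhibitor controls, which was not called (log2 fold change -0.23 ± 0.09, adjusted p = 0.0827). EHMT1 was called lower with the inhibitor by limma (-1.03, adjusted p = 0.000353). Between siRNA control and inhibitor control EHMT1 (-0.79, adjusted p = 0.0011) and EHMT2 (-0.42, adjusted p = 0.00726) were both called lower. Between inhibitor and siRNA control neither gene was called. The epithelial markers EPCAM, KRT8, KRT18, KRT19, CDH1, CDX2 and VIL1 together summed to between 632.2 and 757.1 FPKM per library, although VIL1 was under 1 FPKM in every library. By group that sum was 687.2 to 705.0 FPKM with the inhibitor and 748.6 to 757.1 FPKM in its control, and 632.2 to 647.0 FPKM with the siRNA and 633.4 to 633.5 FPKM in its control. Of the 6 epithelial markers tested by limma, KRT8 (log2 fold change -0.41, adjusted p = 0.000256), CDH1 (-0.61, adjusted p = 0.0333) and EPCAM (-0.20, adjusted p = 0.0427) fell with the inhibitor and KRT19 rose (0.21, adjusted p = 0.00657). That is 66.7% called, where 36.5% of all genes were. By limma 0 of 6 were called with the siRNA (2 at an unadjusted p under 0.05), where 2.13% of all genes were. Against the siRNA controls 0 of 6 were called for the inhibitor (2 at an unadjusted p under 0.05), where 0.0389% of all genes were. Between siRNA control and inhibitor control KRT8 (-0.60), KRT18 (-0.33) and EPCAM (-0.23) were called lower and KRT19 (0.14) higher. Those were 4 of 6, where 38.3% of all genes were called. The part of these marker differences in the HOX results was not tested. The labels' protocols also mention foreskin fibroblasts. Of 9 fibroblast markers 7 were under 1 FPKM in every library, with LUM and FAP listed at 0, and the 9 summed to between 2.19 and 3.99 FPKM. Of the 8 libraries, those of the inhibitor control were least like the others. They correlated with each other over all genes tested at r = 0.993, with the other 6 libraries at 0.957 to 0.974, while those 6 correlated among themselves at 0.985 to 0.995. For this reason the HOX calls against them are also given against the siRNA controls, although the labels do not pair those groups. Nor was the part of this difference between control groups in the results against the inhibitor control tested.

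Paralogs resemble each other in sequence, and overlap in sequence was checked on transcripts of GENCODE 29. Transcripts of HOXA9, HOXB9 and HOXD9 shared no stretch of 50 bases with another HOX gene, and HOXC9 shared 25 of its 1627 such stretches with HOXC6. Larger shares were found between HOXB3 and HOXB6, among HOXC4, HOXC5 and HOXC6, and between HOXD10 and HOXD11, whose levels are therefore less certain.

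Of the 40 entries 3 averaged at least 10 FPKM over the 8 libraries, 14 averaged 1 to 10, 12 averaged 0.1 to 1 and 11 averaged under 0.1 FPKM. The 17 in the upper classes passed the filter of a mean of at least 1 FPKM and were tested: 10 of 11 in HOXA, 5 of 10 in HOXB, 1 of 10 in HOXC and 1 of 9 in HOXD. HOXA9, a regulator of blood stem cells and a driver of leukaemias, was the most abundant, with a mean of 22.9 ± 1.23 FPKM (SD, n = 8). HOXB7, often raised in carcinomas, averaged 17.4 ± 2.01 FPKM, and HOXA10, needed in the uterus and lumbar spine, averaged 12.5 ± 1.33 FPKM. These 3 genes were the highest in every library and held 57.1% to 61.9% of the summed HOX level. The annotated locus of HOXB7 spans HOXB8 and HOXB9. Among all genes tested, HOXA9 stood at the 76.6th percentile of mean FPKM, HOXB7 at the 69.8th, HOXA10 at the 61.0th and HOXA11 at the 30.5th.

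**Figure D1:**
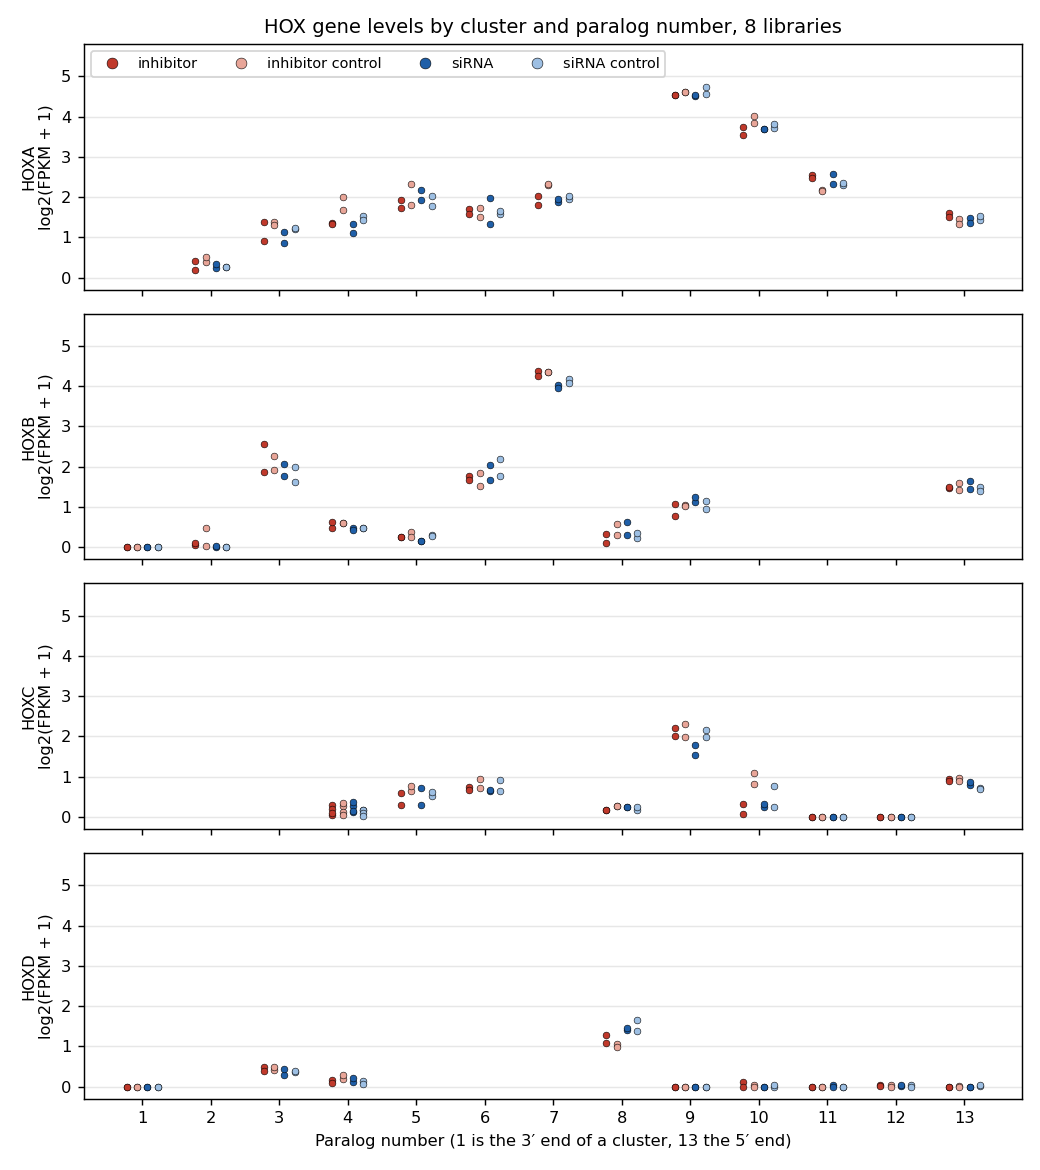
Levels of 39 HOX entries on the log2(FPKM + 1) scale (y axis) against paralog number (x axis), 1 panel per cluster and 1 point per library, coloured by group, with both HOXC4 identifiers at number 4. HOXA9, HOXA10 and HOXB7 stand above all others, and 5 genes lie at 0 in every library.

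Summed over its members, HOXA had 54.0 ± 3.10 FPKM, HOXB 26.97 ± 2.411, HOXC 5.91 ± 1.07 and HOXD 1.96 ± 0.334 FPKM (SD, n = 8 libraries). The order HOXA, HOXB, HOXC, HOXD was the same in each library, and no 2 clusters overlapped. HOXA held between 57.4% and 63.0% of the summed HOX level of a library and HOXB between 28.02% and 34.01%. By paralog number, the level was concentrated near the middle and 5′ side of the clusters. Paralogs numbered 9 summed to 27.01 FPKM on average, those numbered 7 to 20.5 and those numbered 10 to 12.99. The terminal number 13, which patterns the hindgut and its outlets, summed to 4.399 FPKM over HOXA13, HOXB13, HOXC13 and HOXD13, while HOXC12 and HOXD12 together reached only 0.0186 FPKM.

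By group, the HOXA sum averaged 51.7 FPKM with the inhibitor and 57.8 FPKM in its control, and 51.8 FPKM with the siRNA and 54.6 FPKM in its control. The HOXA libraries of inhibitor (51.4 to 52.0 FPKM) and inhibitor control (57.0 to 58.7 FPKM) did not overlap, whereas siRNA (50.4 to 53.2 FPKM) and siRNA control (52.2 to 57.0 FPKM) did. HOXC sums were 5.403 to 6.08 FPKM with the inhibitor and 6.71 to 7.78 FPKM in its control, and 4.12 to 5.41 FPKM with the siRNA and 5.65 to 6.09 FPKM in its control, so that neither pair overlapped. HOXB sums did not overlap between siRNA (24.1 to 24.9 FPKM) and siRNA control (25.4 to 25.9 FPKM), but did between inhibitor (26.3 to 30.8 FPKM) and inhibitor control (29.03 to 29.29 FPKM). HOXD sums were 1.73 to 1.81 FPKM with the inhibitor and 1.61 to 1.64 FPKM in its control, without overlap, and 1.98 to 2.32 FPKM with the siRNA and 2.05 to 2.55 FPKM in its control, with overlap. Against the siRNA controls, the inhibitor sums overlapped in HOXC, lay lower in HOXA and HOXD and lay higher in HOXB. The HOXD direction was thus opposite to that against the inhibitor control. Among single genes tested, 71.5% did not overlap between inhibitor and inhibitor control. Between siRNA and siRNA control 49.7% did not, and between inhibitor and siRNA control 45.9%. No p is given for these sums.

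**Figure D2:**
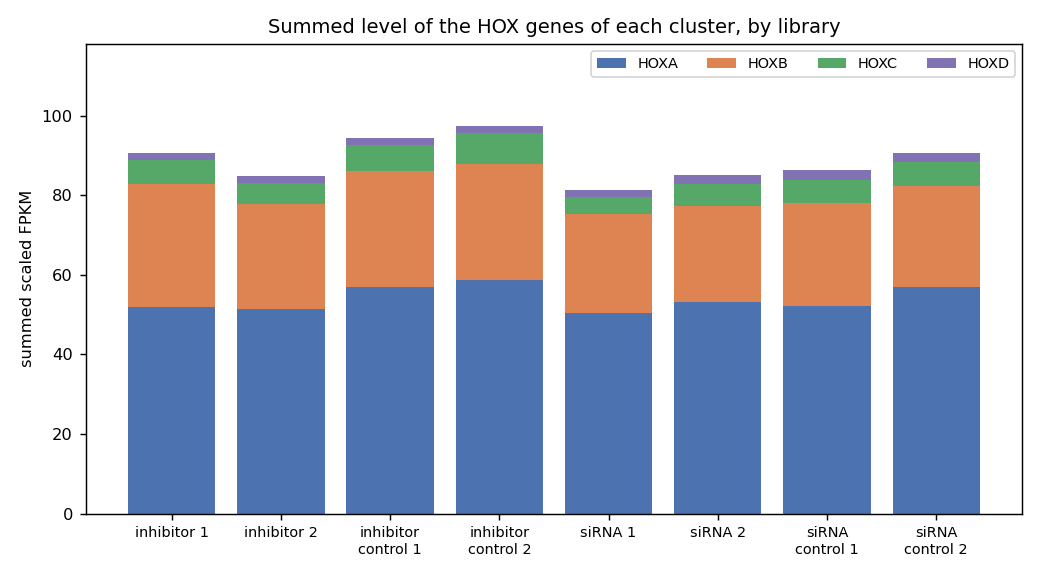
Summed scaled FPKM (y axis) of the members of each cluster, stacked, for the 8 libraries (x axis), each treatment left of its control. The total lies between 81.4 and 97.4 FPKM, and the order of the clusters is the same in each library.

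The first comparison asked how HOX RNAs differ with the G9a inhibitor. Called lower were HOXA4, HOXA7 and HOXA10, called higher was HOXA11, and the other 13 members tested were not called. That is 3 of 17 lower, where 18.7% of all genes tested were called lower, and 1 of 17 higher, where 17.7% were. The 4 called of 17 make 23.5%, below the background of 36.5%. The median log2 fold change of the 17 was -0.04, against 0.009 over all genes, and the median size of a change, sign left out, was 0.127 against 0.221. In 8 members the treated and control libraries did not overlap, 3 higher and 5 lower, where 71.5% of all genes did not overlap. By both measures the members differed less than genes at large, which is a description and no test.

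HOXA4 (27168126 to 27170418 on chromosome 7), which patterns neck vertebrae in mice, had 1.56 and 1.51 FPKM in the inhibitor libraries, against 3.00 and 2.23 FPKM in the inhibitor controls. Both treated libraries lay below both controls, and the log2 fold change was -0.51 ± 0.15 (SE, limma adjusted p = 0.0257). In the siRNA libraries HOXA4 had 1.15 and 1.501 FPKM, against 1.87 and 1.72 FPKM in their controls. There too the groups did not overlap, but the difference was not called (log2 fold change -0.27, 95% interval -0.60 to 0.07). The inhibitor libraries also lay below both siRNA controls, again without a call (-0.14, interval -0.47 to 0.19). The deposited confidence bounds of HOXA4 were as wide as 19.8 to 121.5 fragments per library would give.

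HOXA7 (27193335 to 27197555 on chromosome 7), a central HOXA gene that is raised with HOXA9 in some leukaemias, had 3.04 and 2.47 FPKM in the inhibitor libraries, against 3.95 and 4.01 FPKM in the inhibitor controls. The control libraries were close to each other and above all other 6 libraries, which lay between 2.47 and 3.05 FPKM. Its log2 fold change was -0.41 ± 0.12 (SE, adjusted p = 0.0233). With the siRNA it had 2.66 and 2.90 FPKM, against 2.89 and 3.05 FPKM in the siRNA controls, and these overlapped (log2 fold change -0.07, interval -0.34 to 0.19). Against the siRNA controls the inhibitor difference was -0.08 (interval -0.35 to 0.18).

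HOXA10 (27210210 to 27219880 on chromosome 7) had 10.6 and 12.4 FPKM in the inhibitor libraries, against 13.4 and 15.1 FPKM in the inhibitor controls. The groups did not overlap, with a log2 fold change of -0.29 ± 0.09 (SE, adjusted p = 0.0392). The siRNA libraries had 11.9 and 11.9 FPKM, against 12.1 and 13.01 FPKM in their controls, a difference of -0.07 (interval -0.28 to 0.15) that was not called. HOXA11 (27221129 to 27224842 on chromosome 7), which acts in the forearm, kidney and uterus, was higher, with 4.85 and 4.51 FPKM in the inhibitor libraries, against 3.48 and 3.46 FPKM in the inhibitor controls, or 0.34 ± 0.11 on the log2 scale (SE, adjusted p = 0.0417). Its siRNA libraries had 4.93 and 3.97 FPKM, against 3.92 and 4.13 FPKM in the siRNA controls, and these overlapped. Set against the siRNA controls, the difference was -0.12 (interval -0.34 to 0.09) for HOXA10 and 0.18 (interval -0.08 to 0.44) for HOXA11, and neither was called.

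Each of these 4 calls was lost when certain single libraries were left out. HOXA4 was no longer called without inhibitor replicate 1 (adjusted p = 0.0902), inhibitor replicate 2 (0.115) or inhibitor control replicate 1 (0.167), HOXA7 without inhibitor replicate 2 (0.168) or either inhibitor control (0.0808 and 0.086), HOXA10 without inhibitor replicate 1 (0.253), inhibitor control replicate 2 (0.205) or siRNA replicate 1 or 2 (0.0531 and 0.0526), and HOXA11 without inhibitor replicate 1 (0.18) or 2 (0.107), inhibitor control replicate 1 (0.126) or 2 (0.129), or siRNA control replicate 1 (0.0514) or 2 (0.0509). In those cases the log2 fold change of HOXA11 stayed between 0.30 and 0.39, and that of HOXA10 was -0.18 without inhibitor replicate 1, less than the -0.29 with all libraries by over 1.5 times.

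**Figure D3:**
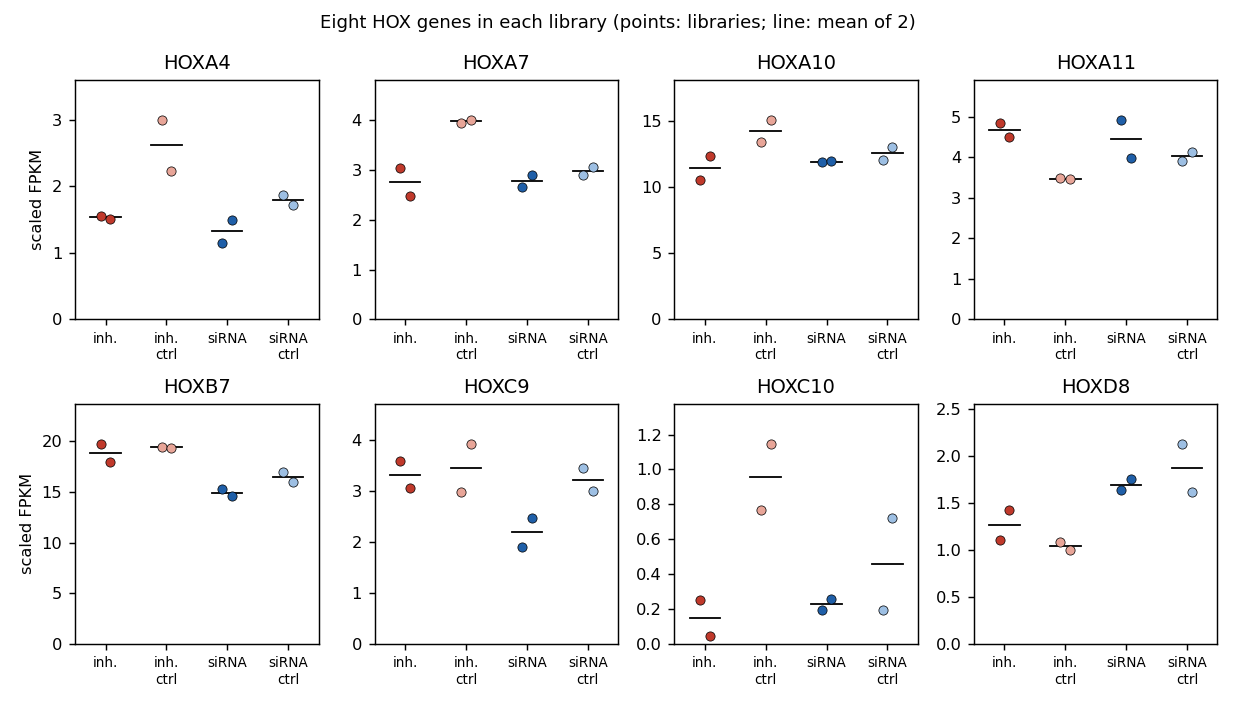
Scaled FPKM (y axes from 0) of 8 HOX genes in each library (points) with the mean of the 2 libraries (line), for inhibitor, inhibitor control, siRNA and siRNA control from left to right. For HOXA7 the inhibitor controls lie above the other 6 libraries, and for HOXA11 they lie below them.

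The loci of all 4 called genes overlap another annotated gene, and no source used here says whether counting used the strand, so such pairs cannot be told apart with certainty. The antisense transcript HOXA11-AS overlaps part of the HOXA11 locus, and HOXA10-AS overlaps part of those of HOXA9 and HOXA10. HOXA11-AS had 0.442 and 0.457 FPKM with the inhibitor, against 0.839 and 0.770 FPKM in the inhibitor controls, opposite in direction to HOXA11, and it was under the filter and not tested. HOXA10-AS had 4.70 and 4.19 FPKM with the inhibitor, against 5.15 and 7.68 FPKM in the inhibitor controls (log2 fold change -0.43 ± 0.16, adjusted p = 0.0716, not called), the same direction as HOXA10.

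The other HOXA members tested were not called with the inhibitor. HOXA9 had 22.0 and 22.2 FPKM, against 23.5 and 23.5 FPKM in the inhibitor controls, without overlap but with a log2 fold change of only -0.09 (interval -0.24 to 0.07). HOXA3, needed for the thymus and parathyroids, had 1.62 and 0.878 FPKM against 1.61 and 1.48 FPKM in the inhibitor controls (-0.20, interval -0.60 to 0.21), and its annotated locus spans HOXA4, HOXA5 and HOXA6. For HOXA5, needed in the mouse lung, the inhibitor libraries had 2.81 and 2.34 FPKM and the controls 2.48 and 3.98 FPKM (-0.22, interval -0.64 to 0.20). HOXA6, which acts in the trunk skeleton, had 2.27 and 1.97 FPKM with the inhibitor and 2.31 and 1.83 FPKM in the inhibitor controls (0.02, interval -0.42 to 0.47). HOXA13, the limb and hindgut gene, had 2.04 and 1.82 FPKM against 1.75 and 1.54 FPKM in the inhibitor controls, without overlap (0.15, interval -0.14 to 0.44). The groups overlapped in HOXA3, HOXA5 and HOXA6.

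In HOXB, no member was called with the inhibitor. HOXB7 had 19.7 and 18.0 FPKM with the inhibitor, against 19.5 and 19.3 FPKM in its controls (log2 fold change -0.04, interval -0.20 to 0.12). HOXB3, a hindbrain gene whose locus spans HOXB4, HOXB5 and HOXB6, had 4.90 and 2.65 FPKM against 2.77 and 3.80 FPKM in the inhibitor controls (0.13, interval -0.41 to 0.67), with bounds as wide as 6.4 to 44.0 fragments per library would give. The groups overlapped in both genes. HOXB6, a trunk gene, had 2.40 and 2.20 FPKM against 2.59 and 1.88 FPKM in the inhibitor controls (0.04, interval -0.38 to 0.46). For HOXB9, a gene of the thoracic skeleton, the values were 1.1 and 0.724 FPKM with the inhibitor and 1.08 and 1.04 FPKM in its controls (-0.11, interval -0.46 to 0.24). HOXB13, a prostate and hindgut gene, had 1.79 and 1.85 FPKM against 2.01 and 1.66 FPKM in the inhibitor controls (-0.01, interval -0.31 to 0.29). All 5 HOXB genes overlapped between the groups.

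HOXC9, which specifies thoracic motor neurons, had 3.598 and 3.05 FPKM with the inhibitor, against 2.99 and 3.92 FPKM in the inhibitor controls (log2 fold change -0.04, interval -0.38 to 0.30). HOXD8, the only HOXD gene above 1 FPKM, had 1.11 and 1.42 FPKM, against 1.08 and 0.996 FPKM in the inhibitor controls (0.15, interval -0.18 to 0.48). HOXD8 did not overlap between the groups and HOXC9 did.

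The second comparison asked the same of the siRNA. No HOX gene of the 17 tested was called by limma, where 2.13% of all genes were, and 1 had an unadjusted p under 0.05. That gene was HOXC9, with 1.91 and 2.48 FPKM in the siRNA libraries, against 3.46 and 2.99 FPKM in the siRNA controls. The groups did not overlap, and the log2 fold change was -0.41 ± 0.15 (SE, adjusted p = 0.172, 95% interval -0.75 to -0.07). Its deposited runs were far apart in siRNA control replicate 2, at 4.50 and 1.04 FPKM. The siRNA libraries lay below both siRNA controls in 6 members (HOXA3, HOXA4, HOXA9, HOXA10, HOXB7 and HOXC9) and above them in 0, where 49.7% of all genes did not overlap. The median log2 fold change was -0.067, against -0.01 over all genes, with a median size of 0.117 against 0.121.

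HOXA9 had 21.7 and 22.0 FPKM with the siRNA, against 22.6 and 25.4 FPKM in the siRNA controls (log2 fold change -0.13, interval -0.28 to 0.03). HOXB7 had 15.3 and 14.6 FPKM, against 16.96 and 15.99 FPKM in the siRNA controls (-0.13, interval -0.30 to 0.03). In both genes the siRNA libraries lay below their controls, by differences whose intervals include 0. The widest interval was that of HOXB3, with 2.411 and 3.23 FPKM against 2.99 and 2.08 FPKM in the siRNA controls (0.12, interval -0.42 to 0.66).

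HOXA3 had 0.818 and 1.19 FPKM with the siRNA, against 1.29 and 1.33 FPKM in the siRNA controls (-0.21, interval -0.62 to 0.19). HOXD8 had 1.63 and 1.75 FPKM, against 2.12 and 1.61 FPKM in the siRNA controls, and these overlapped (-0.09, interval -0.41 to 0.24). HOXA5, HOXA6, HOXA13, HOXB6, HOXB9 and HOXB13 overlapped between siRNA and siRNA control as well, with log2 fold changes between -0.12 and 0.14. Across the siRNA libraries and their controls HOXA5 ranged from 2.45 to 3.52, HOXA6 from 1.54 to 2.92, HOXA13 from 1.57 to 1.89, HOXB6 from 2.20 to 3.56, HOXB9 from 0.940 to 1.40 and HOXB13 from 1.63 to 2.11 FPKM.

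**Figure D4:**
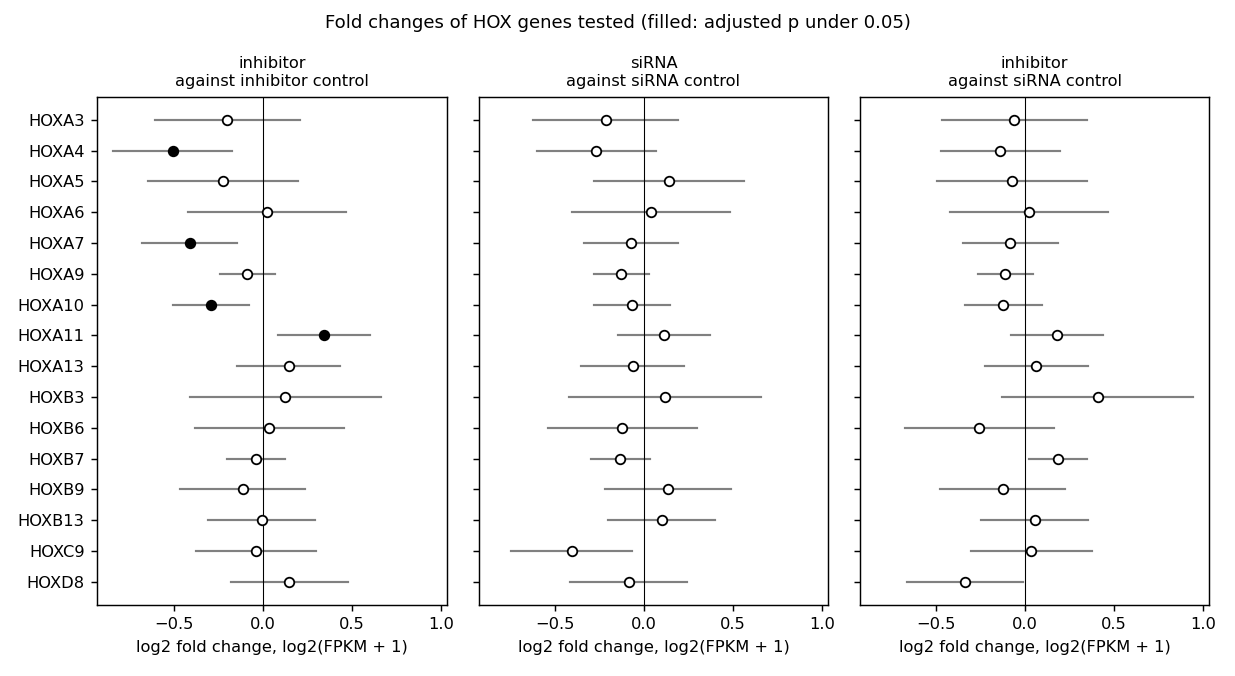
Log2 fold changes on log2(FPKM + 1) (x axis, points) with 95% intervals (lines) of 16 of the HOX genes tested (y axis) for the inhibitor against its own control (left), the siRNA against its own (middle) and the inhibitor against the siRNA control (right), with filled points for called genes. Only HOXA4, HOXA7, HOXA10 and HOXA11 are filled, all of them in the panel against the inhibitor control.

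Whether the effects of inhibitor and siRNA differ was tested by the interaction. It was called for 0 of the 17 members, where 11.8% of all genes were called, and 0 had an unadjusted p under 0.05. The difference between the effects was -0.24 for HOXA4 (95% interval -0.71 to 0.23), -0.34 for HOXA7 (interval -0.71 to 0.04), -0.22 for HOXA10 (interval -0.53 to 0.08), 0.23 for HOXA11 (interval -0.13 to 0.60) and 0.37 for HOXC9 (interval -0.11 to 0.85). A different effect of the treatments was therefore not detected in the 17 members, with 2 libraries per group, and these intervals do not show that the effects were alike.

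Set against the siRNA control, the inhibitor libraries had 0 of 17 members called, where 0.0389% of all genes were called, and 2 with an unadjusted p under 0.05. These were HOXB7 (19.7 and 18.0 FPKM with the inhibitor, 16.96 and 15.99 FPKM in the siRNA controls, log2 fold change 0.18, adjusted p = 0.351) and HOXD8 (1.11 and 1.42 FPKM with the inhibitor, 2.12 and 1.61 FPKM in the siRNA controls, -0.34, adjusted p = 0.389). In 2 members the inhibitor libraries lay above both siRNA controls and in 4 below, where 45.9% of all genes did not overlap. Against the siRNA controls the difference was 0.41 for HOXB3 (interval -0.13 to 0.94), -0.26 for HOXB6 (interval -0.68 to 0.16) and -0.11 for HOXA9 (interval -0.27 to 0.04). HOXA3, HOXA5, HOXA6, HOXA13, HOXB9, HOXB13 and HOXC9 differed by -0.13 to 0.06 and overlapped between these groups. Both HOXB7 and HOXD8 are genes in which the control groups themselves differed. This comparison shares its inhibitor libraries with the one against the inhibitor control.

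Between the control groups, siRNA control against inhibitor control, 2 of 17 members were called by limma, where 38.3% of all genes were. An unadjusted p under 0.05 was found in 4 of the 17. HOXB7 had 16.96 and 15.99 FPKM in the siRNA controls, against 19.5 and 19.3 FPKM in the inhibitor controls (log2 fold change -0.22 ± 0.07, adjusted p = 0.0369). HOXD8 had 2.12 and 1.61 FPKM in the siRNA controls, against 1.08 and 0.996 FPKM in the inhibitor controls (0.49 ± 0.15, adjusted p = 0.0268). Neither pair overlapped, and among the 17 members 2 lay higher in the siRNA controls without overlap and 5 lower, where 69.6% of all genes did not overlap. Of the genes called with the inhibitor, HOXA4 (-0.37, adjusted p = 0.0796), HOXA7 (-0.33, adjusted p = 0.0535), HOXA10 (-0.17, adjusted p = 0.195) and HOXA11 (0.17, adjusted p = 0.279) differed between the control groups in the direction seen with the inhibitor, and none of these differences was called. HOXB7 was not called without inhibitor control replicate 1 (adjusted p = 0.116) or 2 (0.0979) or siRNA control replicate 1 (0.0546) or 2 (0.149), and HOXD8 not without inhibitor control replicate 1 (0.0769) or 2 (0.107) or siRNA control replicate 1 (0.152).

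The 12 members between 0.1 and 1 FPKM were below the filter. HOXC13, a hair and nail gene, averaged 0.894 FPKM with the inhibitor and 0.898 FPKM in its control, and 0.786 FPKM with the siRNA and 0.634 FPKM in its control. HOXC6 averaged 0.626 FPKM with the inhibitor and 0.794 FPKM in its control, and 0.575 FPKM with the siRNA and 0.722 FPKM in its control. HOXC5 averaged 0.368 FPKM with the inhibitor and 0.630 FPKM in its control, and 0.437 FPKM with the siRNA and 0.495 FPKM in its control. The group means of HOXC6 and HOXC5 lay below those of the controls with both treatments. HOXB4, which expands mouse blood stem cells when overexpressed, averaged 0.476 FPKM with the inhibitor and 0.520 FPKM in its control, and 0.376 FPKM with the siRNA and 0.390 FPKM in its control. None of these 4 was called with the inhibitor when the filter was lowered to 0.1 FPKM. The other members of this class, HOXA2, HOXB5, HOXB8, HOXC4, HOXC8, HOXD3 and HOXD4, averaged between 0.0758 and 0.385 FPKM in every group.

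HOXC10, a gene of the lumbar spinal cord and hindlimb, varied most among the 12 members between 0.1 and 1 FPKM. It had 0.249 and 0.0447 FPKM with the inhibitor, against 0.768 and 1.146 FPKM in the inhibitor controls, and 0.195 and 0.257 FPKM with the siRNA, against 0.191 and 0.719 FPKM in the siRNA controls. The inhibitor controls lay above all other libraries. With the filter lowered to a mean of 0.1 FPKM, which tests 29 members among 21328 genes and calls 19.1% of all genes, HOXC10 was called lower with the inhibitor (log2 fold change -0.77 ± 0.19, adjusted p = 0.0238). Under the same filter it was not called against the siRNA control (-0.33, adjusted p = 0.607), nor between siRNA control and inhibitor control (-0.44, adjusted p = 0.144). The deposited bounds of HOXC10 were as wide as 1.0 and 0.2 fragments would give with the inhibitor, and 16.4 and 5.7 in the inhibitor controls. In the siRNA libraries they were as wide as 1.0 and 0.7 fragments would give, and in their controls 2.2 and 2.1. The number of fragments itself is unknown.

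The 11 entries under 0.1 FPKM included 5 listed at 0 in all 16 runs: HOXB1, HOXC11, HOXC12, HOXD1 and HOXD9. The others were HOXB2, HOXD10, HOXD11, HOXD12, HOXD13 and the shorter HOXC4 entry. Their highest value in a library was 0.393 FPKM, for HOXB2 in inhibitor control replicate 2, against 0.0688 FPKM at most for HOXB2 in every other library. HOXD13, which patterns the digits, reached at most 0.0336 FPKM.

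To set genes at these different levels beside their sequence, promoter windows were taken from RefSeq (GRCh38.p14), as 300 bases around each start that lie mostly upstream of it. They were found for 20 of the 39 symbols, with 27 windows. Printed 5′ to 3′ on the gene's strand are those of HOXA9 as the most abundant gene, HOXA7 as a called gene and HOXD1 as a gene listed at 0, with CG dinucleotides in capitals.
HOXA9, chr7:27165488-27165787, minus strand: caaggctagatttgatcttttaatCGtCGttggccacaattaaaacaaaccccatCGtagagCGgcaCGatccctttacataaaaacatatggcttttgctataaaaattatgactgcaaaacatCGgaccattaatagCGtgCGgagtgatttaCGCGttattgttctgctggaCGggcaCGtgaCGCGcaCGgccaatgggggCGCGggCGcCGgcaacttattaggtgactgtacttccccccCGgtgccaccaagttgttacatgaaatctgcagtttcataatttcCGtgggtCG
HOXA7, chr7:27156626-27156925, minus strand: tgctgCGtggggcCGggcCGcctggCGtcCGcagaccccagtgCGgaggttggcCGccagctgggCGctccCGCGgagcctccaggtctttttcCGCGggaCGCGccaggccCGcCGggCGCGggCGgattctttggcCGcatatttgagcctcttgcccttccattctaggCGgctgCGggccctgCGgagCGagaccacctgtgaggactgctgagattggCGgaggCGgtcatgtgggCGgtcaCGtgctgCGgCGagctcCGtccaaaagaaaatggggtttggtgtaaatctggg
HOXD1, chr2:176188418-176188717, plus strand: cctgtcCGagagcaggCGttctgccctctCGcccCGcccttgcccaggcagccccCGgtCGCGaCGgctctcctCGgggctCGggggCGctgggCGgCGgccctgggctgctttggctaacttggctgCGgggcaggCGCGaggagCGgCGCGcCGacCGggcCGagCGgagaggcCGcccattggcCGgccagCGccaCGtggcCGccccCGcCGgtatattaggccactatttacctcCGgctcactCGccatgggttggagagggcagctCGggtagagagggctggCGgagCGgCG
They hold 22, 31 and 36 CG dinucleotides, so the gene listed at 0 has the most of these 3. Over the 27 HOX windows the median was 22, against 14 over all 35116 promoter windows. The 16 windows of 9 symbols with at least 1 FPKM had a median of 23.5 (0 to 44), and the 6 windows of 6 symbols under 0.1 FPKM a median of 23.5 (11 to 36), with ranges that overlapped. Of the 16 windows 7 belong to HOXA3, among them the one with 0. With 1 value per symbol, the median of its windows, the medians were 27 over the 9 symbols and 23.5 over the 6. The letters TATAAA, searched on both strands, occurred in 5 of the 27 windows (HOXA9, HOXA3, HOXD13 and both of HOXA10), and in 11.5% of all windows. The letters TGATTNAT, a HOX and PBX type sequence, searched on both strands too, occurred in the windows of HOXA2 and HOXD11, and in 2.8% of all windows. No HOX window held both.

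**Figure D5:**
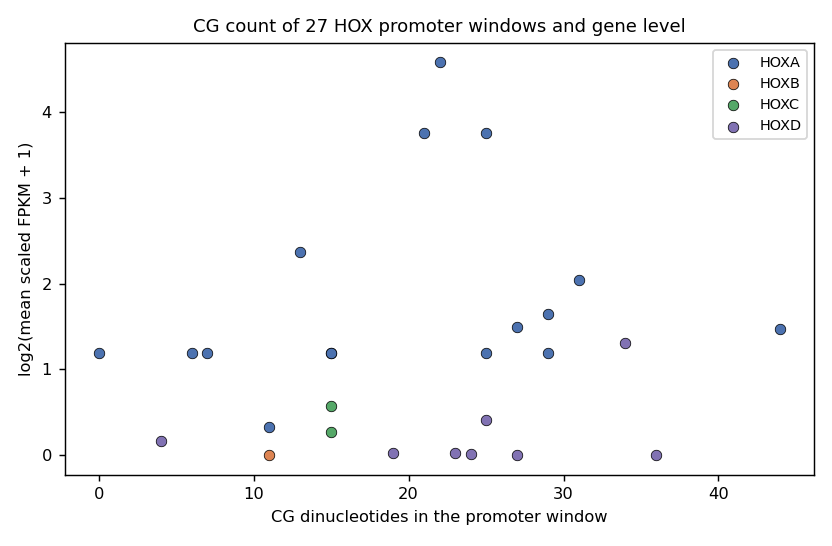
Number of CG dinucleotides in 27 RefSeq promoter windows of 20 HOX genes (x axis) and the gene's level as log2 of mean scaled FPKM + 1 (y axis), coloured by cluster. Windows of genes at or near 0 reach from 11 to 36 CG, and windows of genes above 1 FPKM from 0 to 44.

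Noncoding RNAs of the HOX clusters were mostly low: of 23 listed, 5 passed the filter. HOTAIR, a HOXC antisense RNA known for work with Polycomb proteins, was listed at 0 in all runs, as were the miRNA entries MIR10B, MIR196A1, MIR196A2, MIR196B and MIR615. By limma 0 of the 5 tested were called with the inhibitor, where 36.5% of all genes were, and 0 with the siRNA, where 2.13% were. In each comparison 2 of the 5 had an unadjusted p under 0.05. HOTAIRM1, a noncoding RNA of the HOXA cluster, had 3.91 and 2.93 FPKM with the inhibitor, against 2.55 and 2.47 FPKM in the inhibitor controls (log2 fold change 0.32, adjusted p = 0.121). HOXB-AS3 had 3.00 and 2.34 FPKM with the inhibitor, against 1.36 and 1.96 FPKM in the inhibitor controls (0.47, adjusted p = 0.0724). With the siRNA it had 1.26 and 1.94 FPKM, against 2.82 and 3.54 FPKM in the siRNA controls (-0.69, adjusted p = 0.081). These directions are opposite, and the difference between the effects was called (1.16, adjusted p = 0.0232), as was siRNA control against inhibitor control (0.66, adjusted p = 0.0198). The first of these was not called without either inhibitor library (adjusted p = 0.0837 and 0.0541), inhibitor control replicate 1 (0.0701), siRNA replicate 1 (0.0524) or siRNA control replicate 2 (0.0667), and that between control groups not without inhibitor control replicate 1 (0.125) or siRNA control replicate 2 (0.109). The HOXB-AS3 locus overlaps HOXB3 and HOXB6.

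Among TALE cofactors, 1 of 7 tested (14.3%) was called with the inhibitor, below the 36.5% of all genes. PBX2 fell to 9.64 and 9.92 FPKM, against 15.9 and 15.5 FPKM in the inhibitor controls (log2 fold change -0.63, adjusted p = 0.000848), and had 8.34 and 9.81 FPKM with the siRNA, against 10.0 and 9.54 FPKM in its controls (adjusted p = 0.556). PBX2 differed by -0.0001 between inhibitor and siRNA control (log2, adjusted p = 1), and by -0.63 between siRNA control and inhibitor control (adjusted p = 0.000749). MEIS1, the partner of HOXA9 in leukaemia, was listed at 0 in all runs, and MEIS2 averaged 5.50 FPKM over the libraries and MEIS3 9.82 FPKM. With the siRNA 0 TALE genes were called by limma, where 2.13% of all genes were, and 0 had an unadjusted p under 0.05.

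Of 17 Trithorax and MLL complex genes tested, 10 fell with the inhibitor, where 18.7% of all genes did, and 0 rose, where 17.7% did. Among them were the core subunits WDR5 (19.2 and 18.8 FPKM, against 25.6 and 24.6 FPKM in the inhibitor controls, log2 fold change -0.39, adjusted p = 0.00189), ASH2L (-0.62, adjusted p = 0.00583) and RBBP5 (-0.36, adjusted p = 0.0201), and menin, MEN1 (-0.66, adjusted p = 0.0135). KMT2A, the MLL enzyme best known for holding HOXA genes active, was not called, with 8.56 and 7.60 FPKM against 8.14 and 7.28 FPKM in the inhibitor controls. The list's median log2 fold change was -0.387, against 0.009 over all genes. Of 31 Polycomb genes, 11 fell and 3 rose, where 18.7% and 17.7% of all genes did, with a median of -0.188. The called genes make 45.2% of this list, where 36.5% of all genes were called. The enzyme EZH2 had 19.04 and 17.9 FPKM, against 26.3 and 27.4 FPKM in the inhibitor controls (-0.51, adjusted p = 0.00286), and BMI1, a subunit of the other Polycomb complex, rose to 47.1 and 48.7 FPKM, against 33.6 and 31.3 FPKM in the inhibitor controls (0.55, adjusted p = 0.0016). Between inhibitor and siRNA control the log2 difference was 0.09 for WDR5, 0.03 for ASH2L, -0.14 for RBBP5, -0.22 for MEN1, 0.04 for EZH2 and 0.11 for BMI1, none of them called (adjusted p of 0.578 to 0.949). Between siRNA control and inhibitor control WDR5 (-0.48, adjusted p = 0.00061), ASH2L (-0.65, adjusted p = 0.00439) and EZH2 (-0.55, adjusted p = 0.00184) were called lower and BMI1 higher (0.44, adjusted p = 0.00425). Of the genes named here, MEN1 lost its call without inhibitor replicate 2 (adjusted p = 0.106) or inhibitor control replicate 1 (0.0596), and RBBP5 without inhibitor replicate 1 (0.125) or inhibitor control replicate 1 (0.119).

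Of 12 upstream regulators tested, 8 fell with the inhibitor and 0 rose, where 18.7% of all genes fell and 17.7% rose. CTCF, which marks boundaries inside the clusters, had 14.7 and 14.9 FPKM, against 24.9 and 25.9 FPKM in the inhibitor controls (-0.74, adjusted p = 0.000107). Its difference was -0.02 against the siRNA controls (adjusted p = 0.937) and -0.72 for siRNA control against inhibitor control (adjusted p = 0.000104). The retinoid receptor genes RARA, RARG, RXRA and RXRB all fell by 0.35 to 0.62 on the log2 scale. Without inhibitor replicate 2 or inhibitor control replicate 1 none of these 4 was called (adjusted p of 0.0506 to 0.151 and 0.0631 to 0.153), without inhibitor replicate 1 RARG (0.0894) and RXRB (0.0609) were not, and without inhibitor control replicate 2 RARG was not (0.0581). CDX2, an intestinal regulator of HOX genes, had 3.17 and 3.21 FPKM against 4.29 and 3.63 FPKM in the inhibitor controls and was not called (adjusted p = 0.387). None of these 4 receptor genes was called against the siRNA controls (-0.13 to 0.19, adjusted p of 0.609 to 0.965). Between siRNA control and inhibitor control limma called RXRA (-0.81, adjusted p = 0.00218), RXRB (-0.34, adjusted p = 0.0196) and RARA (-0.32, adjusted p = 0.0498) lower, but not RARG. Of 9 flanking genes tested 2 rose and 3 fell, and these 5 make 55.6%, where 36.5% of all genes were called. Together, 38 of the 81 genes tested in the 6 lists (46.9%) were called with the inhibitor, a count that fell to 21 without inhibitor replicate 1, 19 without inhibitor replicate 2 and 20 without inhibitor control replicate 1. Against the siRNA control 0 of the 81 were called by limma, where only 0.0389% of all genes were, and 11 had an unadjusted p under 0.05. Between siRNA control and inhibitor control the Trithorax list had 8 genes lower and 1 higher and the Polycomb list 10 lower and 2 higher. That is 52.9% and 38.7% called, where 38.3% of all genes were. With the siRNA 2 of the 81 were called (2.47%), close to the 2.13% of all genes, both of them lower: ALDH1A3, a retinoic acid synthesis enzyme (22.9 and 20.3 FPKM, against 32.0 and 30.0 FPKM in the siRNA controls, -0.50, adjusted p = 0.0222), and MTX2, which flanks HOXD (11.1 and 13.5 FPKM, against 16.6 and 17.9 FPKM in the siRNA controls, -0.46, adjusted p = 0.0493). ALDH1A3 was not called without siRNA replicate 2 (adjusted p = 0.0726) or siRNA control replicate 2 (0.12), and leaving out any 1 of the 8 libraries ended the call of MTX2 (0.0511 to 0.278). The lists were drawn from textbook knowledge, and their counts are descriptions.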

How the data were processed

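Per the labels' protocols, total RNA went through a stranded TruSeq preparation and a HiSeq-2000 sequencer. The values are gene-level FPKM with confidence bounds from Cufflinks, as deposited by the authors and per the file headers. The submitters' processing notes also name STAR 2.3.0e, SAMtools 0.1.19 and the build hg19. Not given in the sources used here are the annotation release, strand use in counting and the version of Cufflinks. FPKM divides by a library total, so abundant RNAs can shift all others.

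The 16 samples, 1 file each, gave 8 libraries of 2 runs, averaged and scaled by median-of-ratios factors of 0.878 to 1.09. Genes that averaged 1 FPKM or more and whose locus spans 300 bases or more were fitted with limma 3.58.1 (R 4.3.3) on log2(FPKM + 1), with a mean-variance trend, 4 residual and 5.04 prior degrees of freedom, all 4 groups in 1 fit, and Benjamini-Hochberg adjustment over all genes tested. The script was tested on simulated data. The files hold no read counts. The width of a bound is given as the number of fragments that would produce it (an upper bound of the value times 1 plus 2 over the square root of the count). It is no read count, since bounds of overlapping loci and isoforms hold more than counting error. Of the values above 0, 7.7% have the bound of 1 fragment, within a tolerance of 0.005. Between the runs of a library the 17 members tested differed by a median of 0.176 on the log2(FPKM + 1) scale, and by over 0.5 in 11 of 136 pairs.

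Members, gene lists, comparisons and alternatives were chosen with earlier results of these data known. Members with a mean of at least 1 FPKM are given by library, and 1 item that enters the fits, counts and sums is not reported here. From the companion lists, drawn from textbook knowledge, called genes were named beside the counts of the list. Promoters came from RefSeq (GRCh38.p14) and transcripts from GENCODE 29.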

Additional observations from a re-analysis of the deposited data

How the results depend on the processing

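Over 19 alternatives, 1592 values of HOX genes were recomputed. Of the 6 called values none changed direction, while 52 recomputed values lost their call, 3 gained one and 109 uncalled values changed sign. HOXA4 and HOXA7 each kept their call with the inhibitor in 13 of the 19, HOXA10 and HOXA11 in 7, and between the control groups HOXB7 kept it in 10 and HOXD8 in 12. The 4 HOX genes called with the inhibitor became 2 with FPKM as deposited, 2 with quantile normalization, 0 with no filter on low values, 0 in run 1 alone, 1 in run 2 alone and 1 to 3 with a library left out. The 2 called between the control groups became 1 with quantile normalization, 1 with the filter at 0.1 FPKM, 0 with no filter, 1 in run 1 alone, 1 in run 2 alone, 0 with only the 2 groups compared and 0 to 2 with a library left out. Over all genes, the 4686 called with the inhibitor became 3112 with FPKM as deposited, 2986 with no filter, 3117 in run 1 alone and 2668 to 4770 with a library left out. The 273 called with the siRNA became 134 with FPKM as deposited, 51 with the filter at 0.1, 5 with no filter, 22 with short genes kept, 31 in run 1 alone, 45 in run 2 alone, 7 with only the 2 groups compared and 8 to 424 with a library left out. Of companion list genes, the 38 called with the inhibitor became 15 with no filter, 22 in run 1 alone, 23 in run 2 alone and 19 to 36 with a library left out. The 2 called with the siRNA became 1 with quantile normalization, 1 with the filter at 0.1, 0 with no filter, 0 with short genes kept, 0 in run 1 alone, 1 in run 2 alone, 0 with only the 2 groups compared and 0 to 4 with a library left out. The fewer samples or additional genes of some settings lie in their construction, and otherwise the cause was not tested. FPKM as deposited shifted the median of all genes between siRNA control and inhibitor control by -0.11 on the log2 scale. Cluster sums kept their size under the alternatives run for them, and the fall of EHMT2 with the siRNA kept its call in every alternative run.

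The labels' replicate numbers paired no libraries in these data, since deviations of libraries with the same number correlated between -0.098 and 0.048. With the number as a replicate block, 3 HOX genes were called with the inhibitor (HOXA11 lost its call, adjusted p = 0.053) and 0 with the siRNA, 68 genes in all were called with the siRNA, and 1 companion gene was.

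The main limits are 2 libraries per group, unknown read counts and strand use, an unknown treatment of the controls, and inhibitor controls that stand apart. Members under 1 FPKM enter no test at the filter used, and 5 are listed at 0.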
